A study of Homo sapiens with 6 samples.

Results

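The transcripts of 45 genes that act in the G2 phase and in mitosis were followed in 6 RNA sequencing libraries of hTERT RPE1 cells, an established human retinal pigment epithelial line immortalised with telomerase. The genes were taken by name from a list of mitotic regulators that leaves out the kinesins, apart from CENPE, which is itself a kinesin motor of the kinetochore. All 45 had a row among the 38900 gene IDs of the table, and all 45 were among the 13928 genes that averaged 10 or more normalized counts and were tested. The cells in both groups had been held at full confluency for 5 days to make them quiescent and then received fresh medium for 6 hours. In 3 libraries the medium contained 100 nM combretastatin A4 (CA4), a small molecule that binds tubulin and depolymerizes microtubules, and in the other 3 it contained 0.1% DMSO, the solvent. The comparison asks what the loss of microtubules does to transcripts in cultures made quiescent by confluency.

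Mitotic genes are transcribed late in the cell cycle. In quiescent cells the DREAM complex, made of MuvB, E2F4 and a relative of the retinoblastoma protein, holds their promoters silent, and in cycling cells MuvB joins MYBL2 and FOXM1 to switch them on. MuvB reaches many of these promoters through a short element called the cell cycle genes homology region (CHR). Microtubule poisons stop dividing cells in mitosis, where these transcripts are abundant, but cells outside the cycle build no spindle.

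The promoters of the members carry the CHR element often, and those of 3 members are shown because the element lies just before their start. They are the 3 with the highest mean normalized counts among the members that are described in full below and have the element in their window. RefSeq windows of 300 bases, from 250 before to 50 after each start, were at hand for 38 of the 45 members, in 48 windows, since a gene can have several starts. BUB3, FOXM1, TPX2, AURKA, TTK, BIRC5 and UBE2C had none. The letters TTTGAA, read on either strand, occurred in 28 of these windows (58.3%), and in 15.2% of all 35116 windows. The variant TTTAAA was found in 29.2% of the members' windows and in 12.2% of all windows. CCAAT, the CCAAT box, was present on either strand in 70.8% and 34.6%, and TTCCCGC, an E2F site, in 12.5% and 6.55%. Both TTTGAA and CCAAT occurred in 45.8% of the members' windows and in 5.90% of all windows. The stretches below hold the 120 bases before the start, 5′ to 3′ on the gene's strand, on build GRCh38.p14, with TTTGAA and CCAAT of either strand in capitals.
MKI67, chr10:128126424-128126543, minus strand: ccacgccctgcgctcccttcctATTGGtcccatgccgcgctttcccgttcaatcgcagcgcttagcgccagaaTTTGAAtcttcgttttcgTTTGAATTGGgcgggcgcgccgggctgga
ANLN, chr7:36389742-36389861, plus strand: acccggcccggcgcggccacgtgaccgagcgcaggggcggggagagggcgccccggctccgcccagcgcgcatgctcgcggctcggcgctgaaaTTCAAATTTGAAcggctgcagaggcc
SMC4, chr3:160399530-160399649, plus strand: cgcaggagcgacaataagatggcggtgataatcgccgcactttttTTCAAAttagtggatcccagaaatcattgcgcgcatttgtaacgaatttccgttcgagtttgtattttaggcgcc
MKI67 has the element beginning 47 and 29 bases before its start, the nearer sharing its last base with a reversed CCAAT box, and ANLN has it on opposite strands at 26 and 20 bases before. In SMC4 it lies on the opposite strand, at 75 bases before. CENPF, the next by the same rule, has TTTGAA after its start, so that stretch is not printed. A match describes the letters only and is no evidence of a bound factor.

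The recovered depth was 19524936 to 22538004 reads per library. TUBB3, a beta tubulin whose transcript falls when microtubules are taken apart, gave 7766, 6376 and 6324 normalized counts in DMSO and 917, 1105 and 1051 in CA4, which checks the labels. Of 10 markers of retinal pigment epithelium and simple epithelia, TTR had no read in any library, TYR stayed at or below 2.90 and RLBP1 at or below 5.70 normalized counts. The pigment epithelium markers RPE65, BEST1, PMEL, MITF and OTX2 averaged 10 or more and were tested, as were KRT8 and KRT18, which were at 8393 or more in each library. Of the 7 markers tested, 4 were lower and 3 higher in mean log2 value with a median log2 fold change of -0.03, and 1 passed (4.94% of all tested genes did), OTX2, a regulator of pigment epithelium, which fell by 1.11 on the log2 scale in CA4 (limma, adjusted p = 0.0158). The median gene had a log2 fold change of -0.008, and of -0.109 once all libraries were scaled to the same total. Nothing in the labels says that the libraries came from separate cultures, so the p-values measure the spread between these samples, which may be technical.

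The mitotic transcripts had reads in all 6 libraries except for SPC25, listed at 0 in 1 CA4 library, and their levels differed more between libraries of 1 group than between the groups. No member passed the test. The mitotic score, the mean of log2(normalized count + 1) over the 45 genes, was 9.23, 8.32 and 8.06 in the DMSO libraries, in the order of replicates 1, 2 and 3 used for all such values, and 8.89, 8.26 and 7.41 in the CA4 libraries. The groups overlapped, since CA4 replicate 1 lay above DMSO replicates 2 and 3. With 3 libraries a group, the mean score (± SD, n = 3) was 8.19 ± 0.74 under CA4 and 8.54 ± 0.61 under DMSO, a difference of -0.35, where the DMSO libraries alone spanned 1.17 and the CA4 libraries 1.48. Summed over the 45 genes, there were 42385, 23289 and 20716 normalized counts in the DMSO libraries and 35146, 23063 and 14765 in the CA4 libraries. In these bulk samples a smaller share of cycling cells and less mitotic RNA per cell cannot be told apart.

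**Figure D1:**
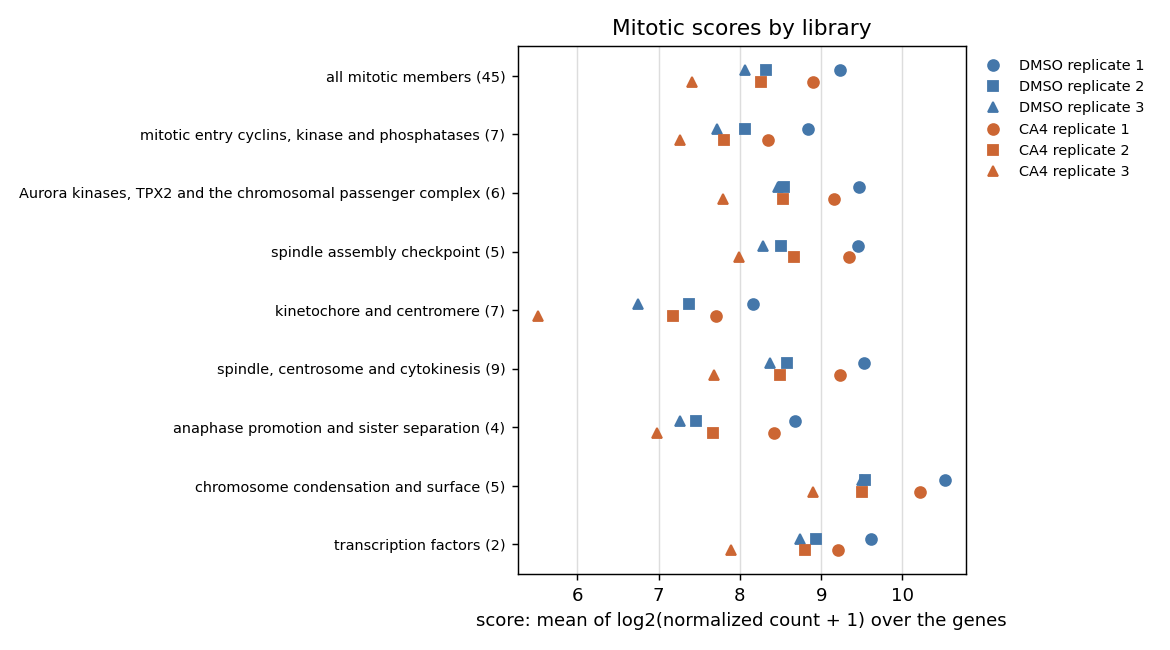
Mitotic score of each library (x axis, mean of log2(normalized count + 1)) for all 45 members and for each of 8 role groups (y axis, number of genes in brackets). Symbols give the replicate number and colours the group. In every row the libraries of both groups overlap, and for all members they run from 7.41 to 9.23.

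The same library was highest almost throughout. DMSO replicate 1 had the highest value of the 3 DMSO libraries in 45 of 45 members, and of all 6 libraries in 42 (93.3%, against 16.7% of all tested genes). CA4 replicate 1 was the highest CA4 library in 44 members, and CA4 replicate 3 was the lowest of all 6 in 40 (88.9%, against 17.9% of all tested genes). The exceptions at the top were TTK, ANLN and AURKB, whose highest value was in CA4 replicate 1. Within DMSO the ratio of the highest to the lowest library had a median of 2.29 over the members and exceeded 2 in 35 of 45, where the median over all tested genes was 1.29. It ran from 1.32 in INCENP to 5.25 in SPC25. The median residual SD on the log2 scale was 0.70 in the members and 0.20 in all tested genes. The replicate 1 libraries had 21101505 (DMSO) and 22538004 (CA4) reads with 1.66% and 1.79% mitochondrial, and the other 4 had 19524936 to 21938255 reads with 1.75% to 2.02%, and the part of these in the order of libraries was not tested.

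**Figure D2:**
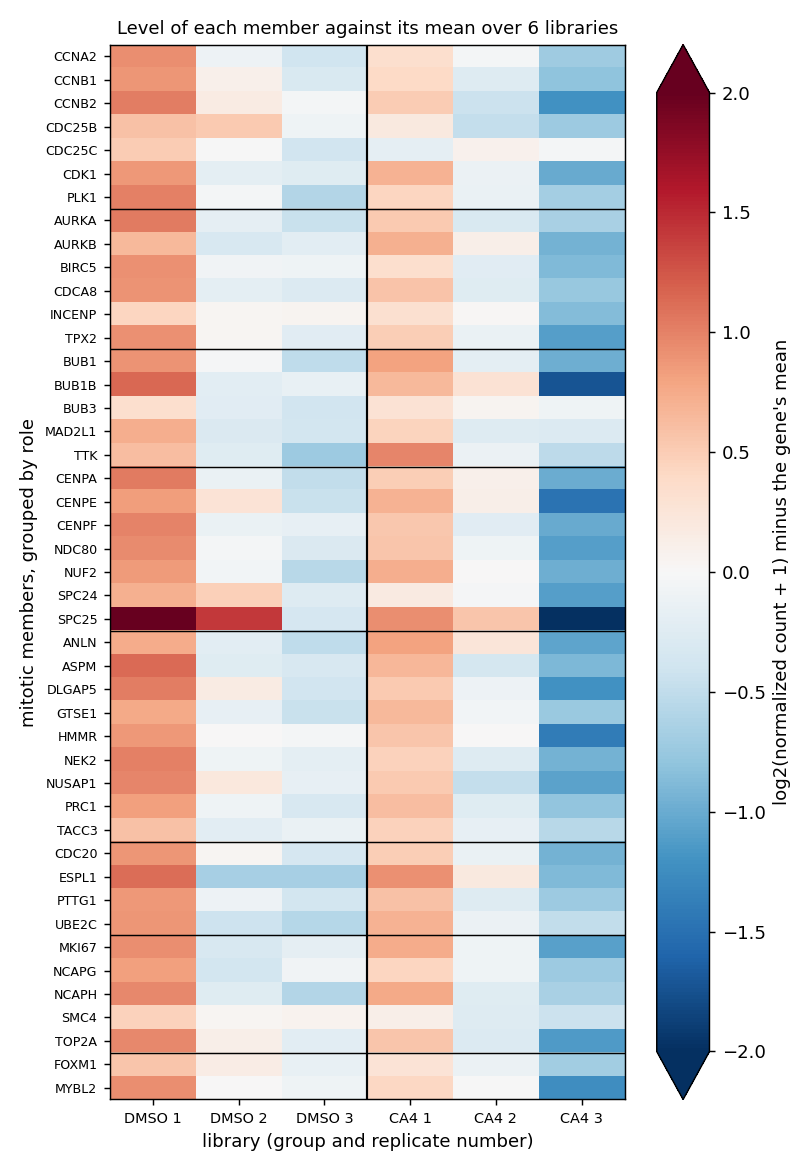
Each row is 1 of the 45 members, grouped by role between black lines, and each column 1 library. Colour gives log2(normalized count + 1) minus the gene's mean over the 6 libraries, and values beyond 2 take the end colour. The DMSO 1 and CA4 1 columns are mostly red and the CA4 3 column is mostly blue, with BUB3, SMC4 and CDC25C the palest rows.

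Across the members, 41 of 45 had a lower mean log2 value in CA4, with a median log2 fold change of -0.30, and over all tested genes 51.1% were lower with a median of -0.008. In limma's test 0 of 45 passed an adjusted p of 0.05, against 4.94% of all tested genes in either direction and 1.97% in the lower direction. The smallest adjusted p among them was 0.189. At an unadjusted p under 0.05 there was 1 member, CDC25B, against 11.0% of all genes on the lower side. The counts past the adjusted threshold were also 0 with edgeR and with DESeq2, which had 1 and 2 members at an unadjusted p under 0.05. Members did pass in the fit with the replicate number as a block, which is given in the closing section. In none of the 45 did the 3 CA4 libraries lie entirely above or below the 3 DMSO libraries, which they did in 27.7% of all tested genes, 13.4% being lower in CA4. The 95% interval of the log2 fold change included 0 in 44 of 45.

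The median of the members changed sign in 2 of the fits that left out 1 library. Without DMSO replicate 1 the median log2 fold change was 0.078 with 21 of 45 lower, and without CA4 replicate 3 it was 0.026 with 20 lower. Without CA4 replicate 1 it was -0.65, with 44 lower. Each of these fits kept the library of the same number in the other group. They therefore cannot separate the direction from the order of replicates that both groups shared. With both libraries numbered 1 left out, a choice made after seeing the data, the median was -0.34 with 39 lower, and again 0 members passed in limma. Between libraries of the same number, the mitotic score was lower in CA4 at all 3 numbers. It was 9.23 in DMSO and 8.89 in CA4 for replicate 1, 8.32 and 8.26 for replicate 2, and 8.06 and 7.41 for replicate 3. The libraries were not treated as paired in these fits. The members described in full below also shifted in the fits without 1 library. Without CA4 replicate 3 the log2 fold change was -0.064 in TPX2, -0.074 in CENPF, -0.014 in CDC20, -0.10 in FOXM1, -0.23 in SPC24, -0.31 in NUSAP1 and 0.18 in MKI67. Without DMSO replicate 1 it was -0.17 in BIRC5, -0.25 in SMC4 and 0.39 in BUB3, which had 0.037 without DMSO replicate 3. CDC25B ran from -0.94 to -0.48 over the 6 such fits.

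**Figure D3:**
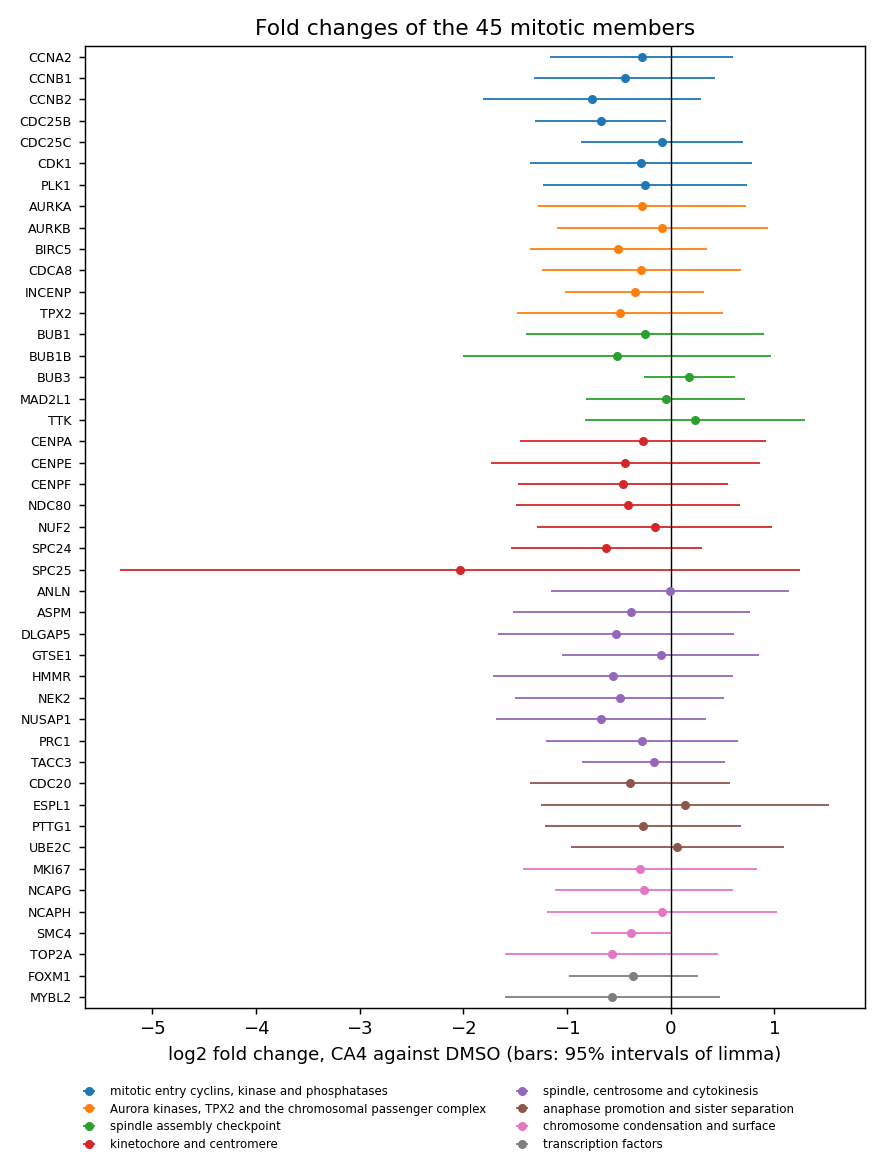
Log2 fold change of CA4 against DMSO (x axis, points) with limma's 95% interval (bars) for the 45 members (y axis), coloured by role. All bars other than that of CDC25B cross 0, and SPC25 has the widest bar, from -5.31 to 1.25.

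The first role group holds the cyclins, the kinases and the phosphatases that start mitosis. All 7 had a lower mean log2 value in CA4, with a median log2 fold change of -0.28. Gene positions are those of GENCODE 29 on GRCh38. CDC25B, a phosphatase that removes the inhibitory phosphates from CDK1 at mitotic entry (chr20:3786772-3806121, plus strand), had 796, 764 and 499 normalized counts in DMSO and 608, 380 and 320 in CA4. CA4 replicate 1 lay above DMSO replicate 3, so the groups overlapped. The log2 fold change was -0.68 (SE 0.27, 95% interval -1.31 to -0.05, adjusted p = 0.189 by limma). CDK1, the kinase that drives cells into mitosis, had 548, 262 and 254 normalized counts in DMSO and 489, 277 and 148 in CA4, so that the replicate 1 library was highest in each group. Its partner cyclins were also highest in the replicate 1 library of each group. CCNB1 had 666, 387 and 292 normalized counts in DMSO and 479, 301 and 206 in CA4. CCNB2 had 402, 223 and 192 in DMSO and 281, 147 and 84.7 in CA4, and its log2 fold change of -0.76 (SE 0.45, adjusted p = 0.364 by limma) was the lowest of the group. For CCNA2, cyclin A2, and PLK1, the polo kinase, the log2 fold changes were -0.28 and -0.25. CDC25C, the other phosphatase, was thinly covered at 20.9 to 39.6 normalized counts, and its change was -0.08.

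Aurora kinases build the spindle and correct faulty attachments. The 6 genes of this group, with the spindle factor TPX2 and the chromosomal passenger complex, gave a median log2 fold change of -0.32, and all 6 had a lower mean log2 value in CA4. TPX2, which activates Aurora A on the spindle (chr20:31739271-31801805, plus strand), had 1813, 990 and 825 normalized counts in DMSO and 1355, 877 and 449 in CA4. BIRC5, or survivin, a subunit of the passenger complex (chr17:78214186-78225636, plus strand), had 888, 447 and 440 in DMSO and 594, 402 and 254 in CA4. In both genes DMSO replicate 1 stood above the other 5 libraries and CA4 replicate 3 below them. BIRC5 had the smallest p of the group, with a log2 fold change of -0.51 (SE 0.37, 95% interval -1.36 to 0.35, adjusted p = 0.458 by limma). TPX2 had -0.49 (SE 0.43). The kinases AURKA and AURKB had -0.28 and -0.08, and the scaffold INCENP and CDCA8, or borealin, had -0.35 and -0.28.

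The spindle assembly checkpoint holds back anaphase until every chromosome is attached. Its 5 genes gave a median log2 fold change of -0.05, the nearest to 0 of the 8 groups, and 2 of them had a higher mean log2 value in CA4. BUB3, which carries checkpoint proteins to the kinetochore (chr10:123154277-123170467, plus strand), had 4304, 2894 and 2623 normalized counts in DMSO and 4157, 3546 and 3220 in CA4. CA4 replicates 2 and 3 both lay above DMSO replicates 2 and 3, and the log2 fold change was 0.18 (SE 0.19, 95% interval -0.26 to 0.62, adjusted p = 0.621 by limma). TTK, the checkpoint kinase also called MPS1 (chr6:80003887-80042527, plus strand), had 230, 126 and 89.3 normalized counts in DMSO and 295, 138 and 104 in CA4. It had the highest log2 fold change of the 45, at 0.23 (SE 0.46, 95% interval -0.83 to 1.295, adjusted p = 0.809 by limma). That value was -0.08 without DMSO replicate 3 and -0.20 without CA4 replicate 1. BUB1B, or BUBR1, had 695, 268 and 281 in DMSO and 491, 384 and 93.6 in CA4. MAD2L1, the MAD2 protein that binds CDC20, had a log2 fold change of -0.05, and the kinase BUB1 had -0.25.

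Kinetochore proteins tie chromosomes to microtubule ends. All 7 members had a lower mean log2 value in CA4, with a median log2 fold change of -0.44. CENPF, a large kinetochore protein (chr1:214603195-214664588, plus strand), had 1812, 827 and 808 normalized counts in DMSO and 1317, 779 and 450 in CA4, a log2 fold change of -0.46 (SE 0.44). SPC24, a subunit of the NDC80 complex (chr19:11131520-11155808, minus strand), had 159, 135 and 80.7 in DMSO and 110, 95.4 and 44.6 in CA4, a log2 fold change of -0.62 (SE 0.40, 95% interval -1.54 to 0.30, adjusted p = 0.398 by limma). Its 3 values in CA4 overlapped those in DMSO through DMSO replicate 3. SPC25, its binding partner (chr2:168834132-168913371, minus strand), had 89.8, 59.8 and 17.1 in DMSO and 42.5 and 32.5 in CA4 replicates 1 and 2, and was listed at 0 in CA4 replicate 3. The fitted log2 fold change of -2.03 (SE 1.41, adjusted p = 0.437 by limma), the lowest of the 45, depends on that 0 and on the pseudocount. It was -0.28 without CA4 replicate 3, -3.13 with a pseudocount of 0.1 and -1.31 with one of 5, and -1.15 in DESeq2. With SPC25 left out, the group's score differed by -0.39 between CA4 and DMSO, against -0.63 with it, and the mitotic score by -0.31. NDC80 and NUF2, the other subunits of that complex, had -0.41 and -0.16, CENPA, the centromeric histone, had -0.27, and CENPE had -0.44.

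**Figure D4:**
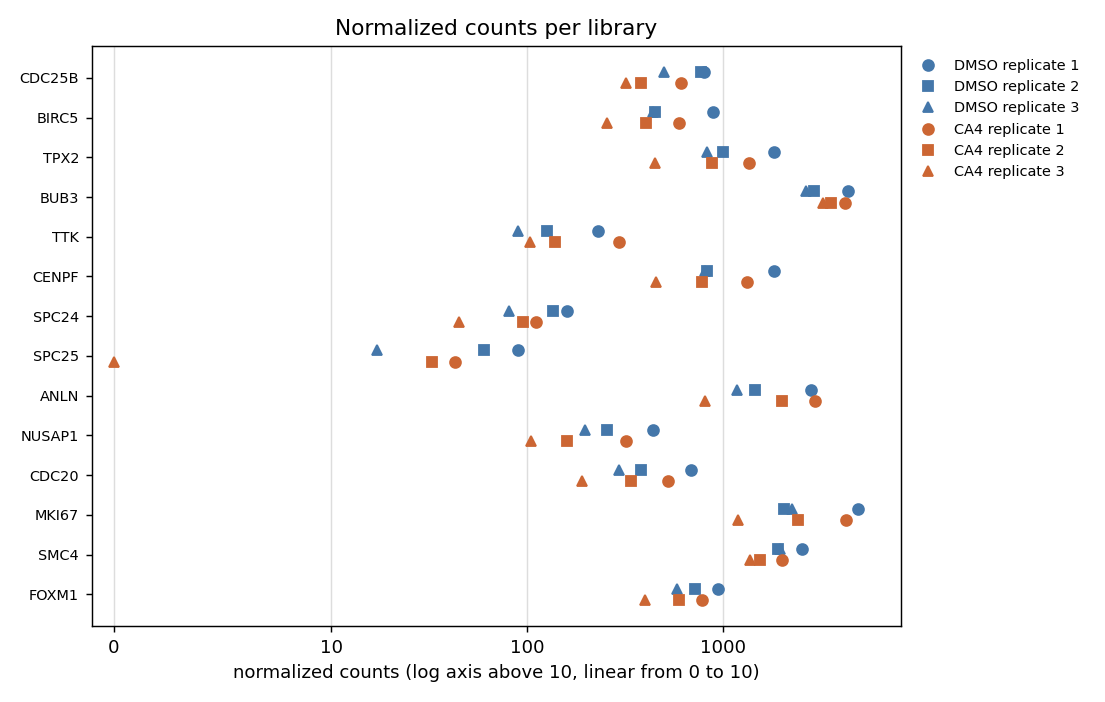
Normalized counts in each library (x axis, logarithmic above 10) for the 14 members described in full (y axis). Symbols give the replicate number and colours the group. The groups overlap in all 14 genes, and SPC25 has 1 CA4 library at 0.

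The largest group holds 9 genes of the spindle, the centrosome and cytokinesis. All 9 had a lower mean log2 value in CA4, with a median log2 fold change of -0.38. ANLN, or anillin, which organises the contractile ring (chr7:36389806-36453791, plus strand), had 2803, 1443 and 1178 normalized counts in DMSO and 2939, 1980 and 805 in CA4. CA4 libraries were thus both the highest and the lowest of the 6, and the log2 fold change was -0.008 (SE 0.49, 95% interval -1.16 to 1.14, adjusted p = 0.995 by limma). NUSAP1, which bundles spindle microtubules (chr15:41332694-41381050, plus strand), had 435, 255 and 197 in DMSO and 320, 159 and 105 in CA4, a log2 fold change of -0.67 (SE 0.44, 95% interval -1.69 to 0.34, adjusted p = 0.407 by limma). The hyaluronan receptor HMMR, which also acts on spindles, had -0.56, DLGAP5 had -0.53 and the centrosomal kinase NEK2 had -0.49. ASPM, PRC1, TACC3 and GTSE1 ran from -0.38 to -0.10. In GENCODE 29, 62.2% of the exon bases of NUSAP1 also belong to AC087721.2 and 57.6% of those of PRC1 to AC068831.7, both on the same strand, so their counts depend on how shared reads were assigned. Those partners had 214 to 303 and 95 to 270 normalized counts per library, and the exchange of reads was not tested. Elsewhere among the members, 33.1% of the exon bases of NCAPG lie opposite LCORL, 15.9% of those of FOXM1 opposite ITFG2, 12.5% of those of PLK1 opposite other genes, and 10.2% of those of BUB1B are shared with BUB1B-PAK6.

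Anaphase begins when CDC20 turns on the anaphase-promoting complex. Of the 4 genes here, 2 had a lower and 2 a higher mean log2 value in CA4, with a median log2 fold change of -0.10. CDC20 (chr1:43358955-43363203, plus strand) had 681, 378 and 292 normalized counts in DMSO and 519, 337 and 191 in CA4, a log2 fold change of -0.39 (SE 0.41, 95% interval -1.35 to 0.57, adjusted p = 0.624 by limma). UBE2C, the ubiquitin-conjugating enzyme of the complex, had 432, 174 and 157 in DMSO and 379, 215 and 165 in CA4. All 3 CA4 values lay within the range of DMSO, and its log2 fold change was 0.064. ESPL1, or separase, which cuts cohesin, had 240, 69.2 and 69.3 in DMSO and 208, 126 and 59.1 in CA4, a log2 fold change of 0.14. PTTG1, the securin that restrains it, had -0.27.

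The genes of chromosome condensation and of the chromosome surface gave a median log2 fold change of -0.30, and all 5 had a lower mean log2 value. MKI67, which coats mitotic chromosomes and is the gene of the proliferation marker Ki-67 (chr10:128096659-128126385, minus strand), had 4849, 2045 and 2246 normalized counts in DMSO and 4233, 2388 and 1191 in CA4. CA4 replicate 1 thus held more than DMSO replicates 2 and 3, and the log2 fold change was -0.30 (SE 0.48, 95% interval -1.42 to 0.83, adjusted p = 0.766 by limma). SMC4, a core condensin subunit (chr3:160399274-160434962, plus strand), varied least between the DMSO libraries of this group, with 2522, 1887 and 1932 in DMSO and 1983, 1533 and 1368 in CA4. Its log2 fold change was -0.38 (SE 0.17, 95% interval -0.77 to 0.007, adjusted p = 0.226 by limma), and 25.6% of its exon bases lie opposite other genes, which matters if strand was not used. TOP2A, the topoisomerase that untangles sister chromatids, had 3030, 1678 and 1341 in DMSO and 2273, 1282 and 712 in CA4, with a change of -0.57. NCAPG and NCAPH, the other condensin subunits, had -0.26 and -0.09.

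Both transcription factors that activate mitotic genes had a lower mean log2 value in CA4. FOXM1 (chr12:2857681-2877155, minus strand) had 941, 712 and 578 normalized counts in DMSO and 776, 596 and 396 in CA4, a log2 fold change of -0.36 (SE 0.27, 95% interval -0.98 to 0.26, adjusted p = 0.470 by limma). MYBL2 had 646, 338 and 316 in DMSO and 450, 334 and 142 in CA4, and its change was -0.56. In both, DMSO replicate 1 was the highest library and CA4 replicate 3 the lowest, as in most of the other members.

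Subtracting each library's mitotic score from the log2 level of a gene leaves its level relative to the other members. This was done after the spread between libraries had been seen, and the members themselves make up the score. The median residual SD of the members was 0.17 on this relative scale against 0.70 before, and it was smaller in 42 of 45. On this scale the groups did not overlap in 7 of 45 members, against 5.11% of all tested genes, which do not share the score and are no like background. CCNB2, TPX2, NUSAP1 and TOP2A were relatively lower in CA4, by differences of -0.41, -0.14, -0.32 and -0.22. TTK, ANLN and GTSE1, a regulator of microtubule ends, were relatively higher, by 0.58, 0.34 and 0.25. TTK had relative log2 levels of -1.38, -1.33 and -1.57 under DMSO and of -0.69, -1.14 and -0.70 under CA4. CCNB2 had relative levels of -0.58, -0.52 and -0.47 under DMSO and of -0.75, -1.05 and -0.99 under CA4. With SPC25, listed at 0 in CA4 replicate 3, left out of the score, the groups did not overlap in 8 members, against 5.16% of all tested genes. ANLN then overlapped, at 2.16, 2.12 and 2.05 under DMSO and 2.55, 2.62 and 2.07 under CA4, while BIRC5 and NEK2 were entirely lower, and the other 6 stayed apart. These genes were picked out by their values and no test is given for them.

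The lists of other mitotic genes hold no member, and their counts stand beside 4.94% of all tested genes past the threshold and 11.0% lower at an unadjusted p under 0.05. The other kinetochore and centromere genes had a median log2 fold change of -0.22 over 29 tested, 22 of them lower, and 0 passed in limma, with 2 at an unadjusted p under 0.05. NSL1, of the MIS12 complex, had the smallest adjusted p there, with 394, 404 and 411 normalized counts in DMSO and 291, 322 and 302 in CA4 (log2 fold change -0.40, SE 0.11, adjusted p = 0.0785 by limma). It passed with all libraries at the same total (adjusted p = 0.0435) and in DESeq2 (adjusted p = 0.0447). SKA1 was not analysed here. The subunits and regulators of the anaphase-promoting complex, which many cells keep outside mitosis, had a median of 0.022 over 17 genes, with 7 lower and 0 past the threshold. CDC27, one of its subunits, had a log2 fold change of 0.36 (SE 0.10, adjusted p = 0.0802 by limma) and passed in DESeq2 (adjusted p = 0.0230). Among 13 other regulators of mitotic entry the median was -0.25, with 9 lower and 0 passing. WEE1, the kinase that opposes CDC25, had -0.42 there (SE 0.14, adjusted p = 0.12 by limma). Without a set test these medians are descriptions only.

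Each of 3 lists held 1 gene past the threshold, a share near the 4.94% of all tested genes, so these are values of single genes and not results about the lists. In cohesin and the other condensin genes, 14 of 18 were lower with a median log2 fold change of -0.28, and RAD21, the cohesin subunit cut at anaphase, passed. It had 3192, 2683 and 2729 normalized counts in DMSO and 2011, 2208 and 1969 in CA4, and fell by 0.47 on the log2 scale (SE 0.10, adjusted p = 0.0390 by limma). Its call was lost in 5 of the 6 fits without a library, with adjusted p-values of up to 0.131. In the other spindle and cytokinesis genes, 18 of 20 were lower with a median of -0.30, and TUBG1, gamma tubulin, passed. It had 1106, 890 and 945 in DMSO and 583, 541 and 508 in CA4, and fell by 0.84 (SE 0.12, adjusted p = 0.0135 by limma), a call lost without DMSO replicate 3 or CA4 replicate 3. In the DREAM, MuvB and RB family list, 9 of 14 were lower with a median of -0.08, and MYBL1, a relative of MYBL2, passed in the other direction. MYBL1 had 1129, 1059 and 1330 normalized counts in DMSO and 2335, 2252 and 2307 in CA4, and rose by 0.98 (SE 0.10, adjusted p = 0.00584 by limma). It still passed when any of the 6 libraries was left out, and its values did not share the order of libraries seen in MYBL2.

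**Figure D5:**
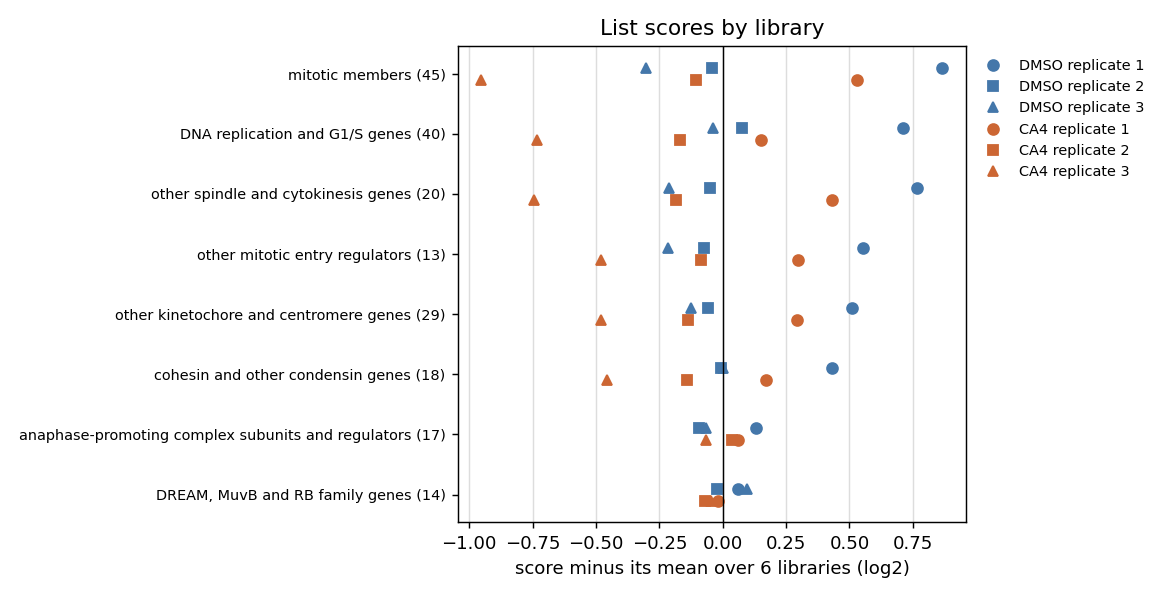
Score of each list in each library minus the list's mean over the 6 libraries (x axis, log2), for the mitotic members and the 7 other lists (y axis, tested genes in brackets). Symbols give the replicate number and colours the group. The mitotic members have the widest spread, and the anaphase-promoting complex and the DREAM list lie close to 0 in all 6 libraries.

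The genes of DNA replication and the G1/S step, which are switched on earlier in the cycle, were set beside the mitotic members. Of the 40, all tested, 39 had a lower mean log2 value in CA4, with a median log2 fold change of -0.50. In limma 0 of the 40 passed, and 10 (25.0%) were lower at an unadjusted p under 0.05, against 11.0% of all tested genes. MCM7, of the replicative helicase, had the smallest adjusted p, at 0.0798 in limma and 0.0149 in DESeq2, for a log2 difference of -0.53 (SE 0.14). In 10 of the 40 the CA4 libraries lay entirely below the DMSO libraries, compared with 0 of the 45 mitotic members and 13.4% of all tested genes. The DMSO libraries had replication scores of 8.62, 7.98 and 7.86 and the CA4 libraries 8.05, 7.74 and 7.17. DMSO replicate 1 was again highest, in 40 of 40 genes within DMSO, and CA4 replicate 1 lay above both DMSO replicates 2 and 3 in 22 of 40 genes, compared with 41 of the 45 mitotic members and 40.5% of all tested genes. The median of the replication genes stayed negative in each fit without 1 library, from -0.67 to -0.26. The mitotic score minus the replication score was 0.61, 0.35 and 0.20 in DMSO and 0.84, 0.52 and 0.24 in CA4, so the groups overlapped in the balance between the 2 lists, and the difference between the lists was not tested.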

How the data were processed

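The 6 libraries hold polyA RNA from 6 samples of 1 cell line, grouped and numbered by their titles. The deposited table is a signal that the authors named normalized counts, with 38900 Ensembl IDs in rows and 1 column per library, per the file headers. Per the submitters' processing notes, the tools were Trim Galore 0.6.6, FastQC 0.12.1, STAR 2.7.9a, Salmon 1.8.0 and DESeq2 1.44.0, the genome build was GRCh38, and no order or role is given for them. The annotation release and the use of strand are not given in the sources used here. Within a tolerance of 0.01, 100% of the values in each column were whole multiples of 1 step, so whole reads were recovered by division, and they can be rounded estimates.

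Symbols came from the supplied gene name table, and all 45 mitotic symbols matched 1 row each. Values were transformed to log2(normalized count + 1). The 13928 genes that averaged 10 or more normalized counts were fitted by limma 3.58.1 in R 4.3.3 with treatment as the only term and a mean-variance trend, and two-sided p-values were adjusted by Benjamini-Hochberg over all of them, with 0.05 as the threshold. A score is the mean log2 value over a list's genes in 1 library. Lists have no test of their own. The members and all lists were chosen with earlier results of these data known. Per role group, the member with the highest mean and the one with the smallest p were described in full, and also the members with the extreme fold changes. Of the other lists, the genes past the threshold, or else the 1 with the smallest adjusted p, were named, and other names were added after their values were seen. The alternatives were other pseudocounts, filters and scalings, limma without the trend or with a robust prior, edgeR 4.0.16 and DESeq2 1.42.0 on recovered reads, the replicate number as a block, and fits without single libraries. The fits were also run on simulated counts drawn independently for each library, with no order of libraries shared between genes. That run therefore cannot show how the fits perform on the mitotic members, which share such an order. Promoter windows came from RefSeq (GRCh38.p14), and gene overlaps from GENCODE 29.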

Additional observations from a re-analysis of the deposited data

How the results depend on the processing

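The count of 0 mitotic members past the threshold was the same in 18 of the 19 alternatives run, the exception being the replicate block (2 members were below the filter at a mean of 50). With the replicate number as a block, 7 members passed, all 7 of them lower (CCNB1, CCNB2, CDC25B, DLGAP5, NUSAP1, SMC4 and TOP2A), and 2397 of all genes (1260 higher, 1137 lower). Over all tested genes, same-numbered libraries deviated together with correlations of 0.202, 0.159 and 0.059. Not all were above 0.1, so the libraries were not treated as paired, although each DMSO library matched its own number best. These correlations were not taken over the members alone. Among the members, replicate 1 was the highest of its group in 45 (DMSO) and 44 (CA4), and replicate 3 the lowest in 37 and 44. Over all 13928 tested genes the same counts were 5306, 4680, 4397 and 4452. The block also gave 2 of the other kinetochore genes, 2 of the anaphase-promoting complex, 5 of the cohesin list, 2 mitotic entry regulators, 5 spindle genes, 5 DREAM genes and 12 replication genes, with NSL1, CDC27 and MCM7 among them. The number of lower members ran from 20 to 44 without single libraries. All genes past the threshold numbered 688 (413 higher, 275 lower) in the reported fit, 103 (51 and 52) without the variance trend, 1613 (907 and 706) in DESeq2, 414 (260 and 154) without both libraries numbered 1, 523 lower with the same total, and 81 to 994 (50 to 605 higher, 31 to 389 lower) without single libraries. Without the trend the cohesin and spindle lists had 0 calls, and without both libraries numbered 1 the cohesin list had 0 and the replication list 2. DESeq2 called 1 kinetochore gene, 1 of the anaphase-promoting complex, 3 cohesin, 2 spindle, 2 DREAM and 4 replication genes. With the same total 1 kinetochore gene passed, and the medians of the anaphase-promoting complex and DREAM lists were -0.079 and -0.18. Without single libraries the cohesin and spindle lists had 0 to 1 calls and the replication list 0 to 2. Some members changed sign: ANLN was 0.081 in edgeR and 0.078 in DESeq2, and without single libraries ANLN ran from -0.41 to 0.52, TTK from -0.20 to 0.60 and MKI67 from -0.74 to 0.18. The cause was not tested. Low counts limit CDC25C and SPC25.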
